A study of Macaca fascicularis with 2 samples.

Results

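The cells described here were granulosa-like cells of the fetal monkey ovary chosen for high LYPD1, CBLN2, RGS4 and HEY2, called set C. Members had at least 1000 unique molecular identifiers (UMIs, counted RNA molecules), at least 4 set C UMIs from at least 2 of its genes, and more UMIs of set C than of either comparison set. They also had no UMI of DAZL, a germ cell gene, or PECAM1, an endothelial gene, and less than 20 UMIs of the collagens COL1A1, COL1A2 and COL3A1 per 10000. This gave 734 of the 17943 cells with at least 1000 UMIs (4.09%, exact binomial interval 3.81–4.39), out of 20967 cells in the table. Since the rule reads the same counts that are described, the levels of these genes and all contrasts with other cells are descriptions without a test.

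The ovaries came from 2 untreated Macaca fascicularis fetuses, 1 at E84 and 1 at E116, and each library pooled both ovaries of 1 fetus. They were digested with the Tumor Dissociation Kit, human, and sequenced by a droplet method that counts the 3′ ends of polyadenylated RNA. The table holds both libraries as 18446 genes and barcodes that end in 1 or 2, without saying which ending is E84, so nothing is reported by stage and all cells count as 1 pooled sample without replicates. Levels are the summed UMIs of a class, scaled to a common total of all its UMIs (CPM, the usual unit of count data), with exact 95% Poisson intervals, and shares have exact 95% binomial intervals, both covering counting error only.

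Granulosa cells are the somatic supporting cells of the ovary. They surround oocytes, form follicles with them and lay down the basement membrane that encloses each follicle. In the fetal ovary they come from supporting-cell progenitors and from the surface epithelium, and NOTCH signals between germ cells and granulosa cells are known for their part in assembling the first follicles. Among the genes of the rule, LYPD1 encodes a membrane-anchored protein that modulates nicotinic acetylcholine receptors, and CBLN2 a secreted cerebellin that binds neurexins at synapses. RGS4 speeds the shut-off of G protein signals, and HEY2 is a transcriptional repressor downstream of NOTCH.

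Barcodes ending in 2 supplied 732 of the 734 members, 17.1% (16.0–18.3) of the 4270 cells with that ending that passed the limits on UMIs, collagens, DAZL and PECAM1. Of 3243 such cells with barcodes ending in 1, 2 were members (0.0617%, 0.00747–0.223). Those 2 cells had 35883 and 55630 UMIs, 32 and 18 UMIs of MSLN and 9 and 15 of UPK3B, both genes of the surface epithelium, and none of AMHR2, the receptor of anti-Müllerian hormone. The values for the members are pooled over all 734 and so rest almost wholly on one ending (9890964 of 9982477 UMIs), whose library, animal and stage cannot be told apart from the cells themselves. The endings share 27 barcodes, 3 of them carried by members.

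The members were compared with cells chosen in the same way from 2 other gene sets. Set A (SOST, CRYM, TOX3, HS3ST3A1) gave 1289 cells, of which 329 carry barcodes ending in 2 and 960 the other ending. Set B (INHBB, COL4A3, COL4A4, PLXNC1) gave 311 cells, of which 304 end in 2. Set B contrasts are thus nearly all within one ending, while set A contrasts mix the endings, so ratios over set A were also taken within barcodes ending in 2.

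Members were deep cells. They had a median of 9822.5 UMIs (1005–85631) and 3160 genes, against 7363 UMIs in set A cells, 7673 in set B cells and 4038 in all cells passing the other limits. More than 3000 genes were detected in 395 of the 734, so that a limit of 3000 genes left 339. The median mitochondrial share was 15.2% in members, 10.5% in set A and 18.9% in set B cells, where the upper quartile reached 40.5%. No doublets were removed, and without the deepest 8% of cells of each ending 630 members remained.

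The 4 rule genes did not contribute equally. A median member had 11 set C UMIs (4–77), and 405 had 10 or more. All 4 genes were detected in 258 members, 3 in 254 and 2 in 222, and the most frequent pair was RGS4 with HEY2 alone in 85 members. RGS4 held the most set C UMIs in 304 members, LYPD1 in 167, CBLN2 in 95 and HEY2 in 65. At the threshold, 65 members had exactly 4 set C UMIs with a median depth of 5377 UMIs, and 68 cells stopped at 3 with a median of 3591.5.

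By choice, rule genes were high in members. LYPD1 stood at 254 CPM (244–264) in members, 6.33 CPM in set A and 12.7 CPM in set B cells. CBLN2 stood at 182 CPM (174–191), 1.10 and 16.4 CPM in the same order. RGS4 was the least restricted of the 4, with 425 CPM (412–438) in members, 116 CPM in set A, 141 CPM in set B and 118 CPM in stroma cells. HEY2 was at 182 CPM (174–191) in members and 9.58 CPM in set A cells, and set B cells kept 78.6 CPM.

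Each rule gene was also left out in turn, and the cells of all 3 sets were picked again without it, so that the omitted gene helped to choose none of them. LYPD1 was then at 241 CPM in 566 set C cells, 8.64 CPM in set A and 43.6 CPM in set B cells, a ratio of 27.9 and 5.53. CBLN2 was at 166 CPM in 617 set C cells, 1.10 CPM in set A and 48.4 CPM in set B cells. HEY2 was at 179 CPM in 526 set C cells, 10.1 CPM in set A and 102 CPM in set B cells. RGS4 hardly separated set C from set B when it was not used, with 317 CPM in 446 set C cells, 313 CPM in set B and 179 CPM in set A cells (ratios of 1.01 and 1.77). All of these set C cells were also members.

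Thinned to 1000 UMIs per cell, 20.6% of members had a UMI of LYPD1 against 0.543% of set A, 2.25% of set B, 1.70% of stroma and 1.95% of germ cells. Without thinning the share in members was 75.3%. Germ cells, the deepest class with a median of 15932 UMIs, were taken as a background for free RNA, and 2.26% of them had a UMI of AMHR2. Free RNA belongs to a library, and 1185 of the 1901 germ cells carry barcodes ending in 1. Among the 716 germ cells with barcodes ending in 2, 3.77% had a UMI of LYPD1 and 2.09% one of AMHR2, against 20.6% and 24.9% of members with that ending. With the same ending, 0.912% of set A and 2.30% of set B cells had a UMI of LYPD1, and 24.6% and 12.2% one of AMHR2. The germ cell share of LYPD1 was above both sets and may hold more than free RNA, which was not tested. Members held 43.3% of all LYPD1 UMIs of the table, 46.7% of CBLN2, 38.3% of HEY2 and 26.8% of RGS4. Much of the remainder lay in cells that the rule excludes, with 30.3% of LYPD1 in cells with a DAZL or PECAM1 UMI and 31.1% of RGS4 in cells over the collagen limit.

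Many members also had transcripts of the other sets. The shares in this paragraph are without thinning, and members were deeper (median 9822.5 UMIs) than set A (7363) and set B cells (7673), which favours detection in members. At least 1 set A UMI was found in 348 members (47.4%) and at least 1 set B UMI in 622 (84.7%). COL4A3 and COL4A4, which encode basement membrane collagen chains, were found in members at shares close to those of set B cells, although both genes served to choose set B. COL4A3 was in 66.6% of members, 65.6% of set B and 2.79% of set A cells (169, 175 and 5.23 CPM). COL4A4 was in 57.9%, 65.0% and 5.35% in the same order (105, 132 and 7.22 CPM). The other set B genes differed more. INHBB, the beta B subunit of activin and inhibin, was in 6.40% of members and 60.1% of set B cells, and PLXNC1, a semaphorin receptor, in 36.6% and 89.7%.

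The granulosa label was read against 16 marker genes. AMHR2 stood at 282 CPM (272–293) in members, above set A (178 CPM), set B (155 CPM) and stroma (94.1 CPM). The gonadal transcription factors WT1 and EMX2 were at 200.1 and 309.9 CPM in members, between set A (296 and 374 CPM) and set B cells (135 and 153 CPM). FOXL2 (3.61 CPM) and GATA4 (1.20 CPM), which define granulosa cells elsewhere, were near 0 in members as in set A (2.73 and 3.46 CPM) and set B cells (4.64 and 0.619 CPM). The study reports marked expression of FOXL2 and FST, beside AMHR2, in its granulosa cells, which these FOXL2 levels do not show. KITLG, the ligand of the oocyte receptor KIT, was lower in members than in set A (123 against 305 CPM). The granulosa name thus rests on part of the list, chiefly AMHR2. Within barcodes ending in 2, AMHR2 was found in 24.9% of thinned members and 24.6% of thinned set A cells. The study also reports WT1 in its Leydig cells. After thinning, 30.5% of members had no UMI of the 16 markers, against 15.7% of set A, 26.4% of set B and 56.6% of stroma cells.

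Of the granulosa markers, 16 were compared with set A and 14 with set B cells. None was at least 2-fold higher in members, beside 2.05% of all genes over set A and 2.27% over set B. Against set A 5 were lower, namely KITLG, BMP2, IRX3, LHX9 and NR0B1, beside 1.51% of all genes. Against set B 4 were lower, beside 1.21% of all genes. They included FST, an activin antagonist (87.7 against 374 CPM), and INHA, the inhibin alpha subunit (29.3 against 201 CPM). The others were HSD17B1, an oestrogen-forming enzyme (39.1 against 134 CPM), and the cadherin CDH2 (101 against 249 CPM). Summed over the list, members had 1324 CPM, set A 1936, set B 1639 and stroma cells 868 CPM.

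Across all genes, a gene was counted as higher or lower when the ratio of CPM, with 10 CPM added, reached 2-fold and was at least 1.5-fold the same way within barcodes ending in 2. Genes of the rule were left out and at least 30 UMIs were required. Over set A, 250 of 12201 genes were higher in members (2.05%) and 184 lower (1.51%). Over set B, 246 of 10834 were higher (2.27%) and 131 lower (1.21%). Against both at once, 107 of 10817 genes were higher (0.989%) and 12 lower (0.111%), and 103 and 11 of them have a symbol. Within barcodes ending in 2 alone, 99 were higher, 92 of them shared with the 107, and 7 lower, 5 of them shared with the 12. With at most 20% mitochondrial UMIs, which left 617 members and 167 set B cells, 109 were higher and 104 of these were shared. These shares are the background for the gene lists. The median log2 ratio over all genes was −0.08 over set A and 0.05 over set B.

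**Figure D1:**
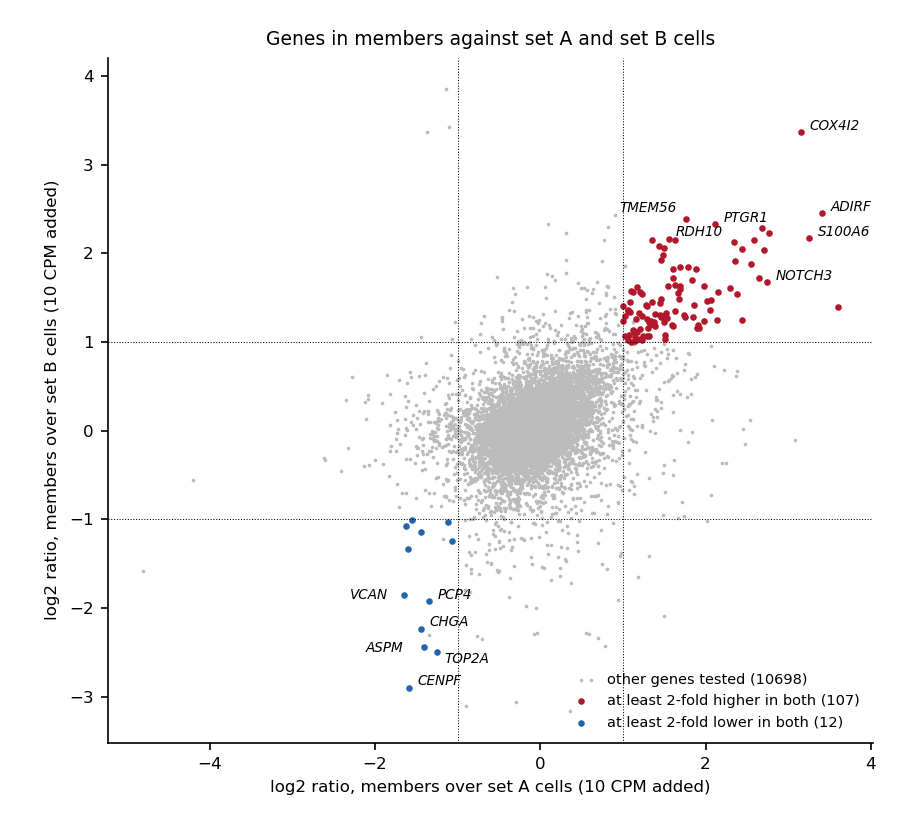
Log2 ratio of CPM (10 CPM added) in members over set A cells (horizontal) and over set B cells (vertical) for 10817 genes, 1 point each; dotted lines mark 2-fold. Red points are the 107 genes higher in members in both contrasts and blue points the 12 lower in both, and the red points outnumber the blue.

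COX4I2 and ADIRF led the genes that were higher against both. COX4I2, the isoform of a cytochrome c oxidase subunit linked to low oxygen, stood at 179 CPM (171–188) in members, 11.3 CPM in set A and 8.35 CPM in set B cells, with log2 ratios of 3.15 and 3.37. Within barcodes ending in 2 it was found in 16.1% of thinned members, 2.74% of set A, 1.32% of set B and 1.68% of germ cells. ADIRF, a factor first described in fat cell formation, stood at 217 CPM (208–226), 11.3 and 31.3 CPM (log2 3.41 and 2.46).

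Both genes were higher still in mural cells, the pericytes and smooth muscle cells of vessel walls. For this comparison 77 mural cells were picked by at least 3 UMIs from at least 2 of HIGD1B, KCNJ8, ABCC9, NDUFA4L2 and CSPG4. Cells with a DAZL or PECAM1 UMI were left out, and so were members, even those that met this limit. In the mural cells COX4I2 was at 725 CPM and ADIRF at 427 CPM. This class was added after the members had been examined.

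Several of the 20 leading genes act outside the cell or at its surface. SBSPON, a matrix protein with a thrombospondin domain, was at 123 CPM (116–129.9) in members, 10.8 CPM in set A and 17.3 CPM in set B. THY1, a membrane-anchored glycoprotein, was at 80.6, 3.31 and 9.28 CPM, and at 193 CPM in stroma and 695 CPM in endothelial cells. PRELP, a small leucine-rich proteoglycan, was at 277, 73.0 and 70.2 CPM and at most 92.4 CPM in every other class. IGFBP5, which binds insulin-like growth factors, and TIMP1, an inhibitor of matrix proteases, were abundant in members (1627 and 1299 CPM) and in stroma cells alike (1882 and 1421 CPM). EREG, a ligand of the epidermal growth factor receptor, was low but again highest in members (45.5 CPM against 5.60 and 7.12 CPM).

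Enzymes and intracellular proteins made up another part of the list. CTSD, the lysosomal protease cathepsin D, had the highest level of the 20 in members with 2622 CPM (2591–2654), against 393 CPM in set A (682 CPM in barcodes ending in 2), 630.3 CPM in set B and 1383 CPM in immune cells. PTGR1, which reduces prostaglandins and leukotrienes, was at 137 CPM against 23.9 and 19.2 CPM. The calcium-binding S100A6 (309, 23.4 and 61.0 CPM) and the annexin ANXA3 (218, 27.9 and 41.2 CPM) showed the same order, but S100A6 was higher in immune cells (841 CPM).

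MMD, a membrane protein named from macrophage differentiation, was at 176 CPM against 26.3 and 39.3 CPM. TMEM56, a membrane protein, was at 432 CPM against 120.1 and 74.3 CPM, and its log2 ratio over set A went from 1.76 to 1.03 within barcodes ending in 2. RCSD1, which interacts with actin capping protein, was at 32.6 CPM against 0.810 and 3.71 CPM but at 100.2 CPM in mural cells. The remaining genes of the 20, RDH10, HEYL, THRB, NID1 and NOTCH3, belong to the lists below.

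**Figure D2:**
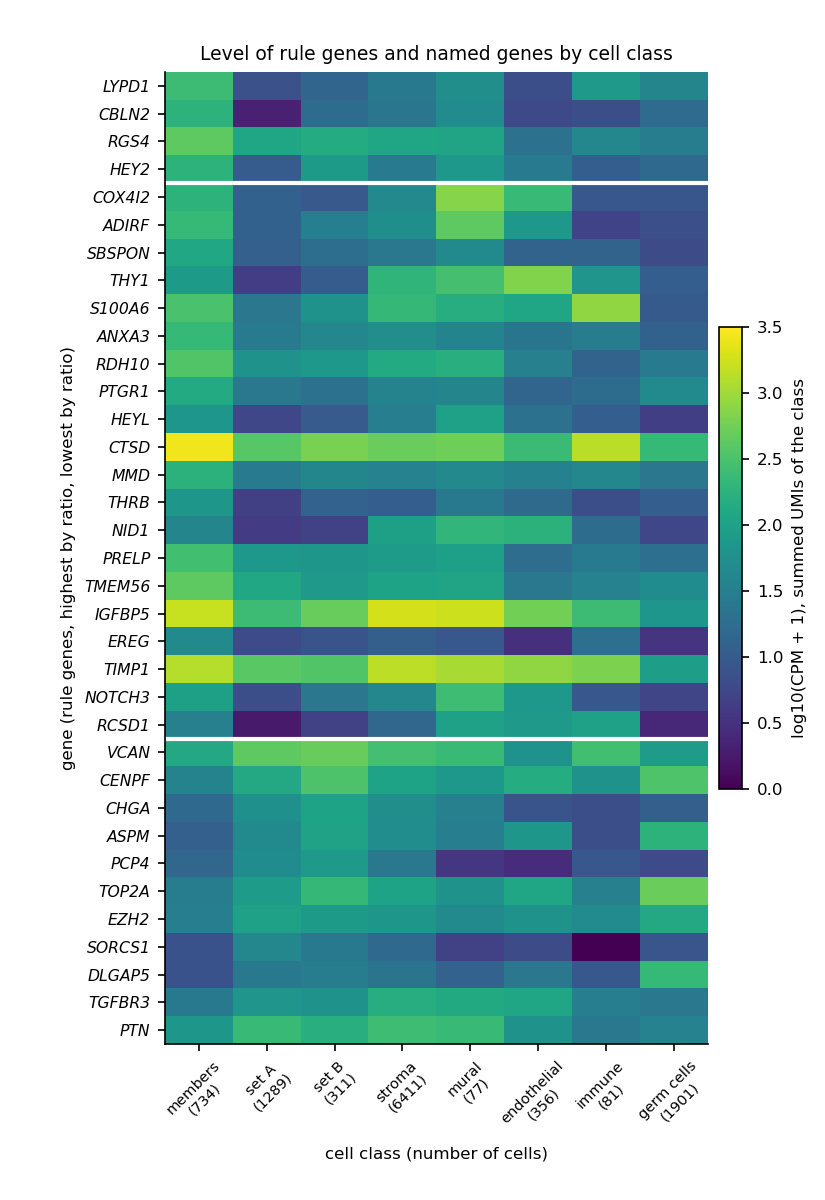
Heat map of log10(CPM + 1) from summed UMIs for the 4 rule genes, the 20 genes highest and the 11 lowest by ratio (rows) in 8 cell classes (columns, with the number of cells). Members differ from set A and set B throughout, while COX4I2, ADIRF, NID1 and NOTCH3 are brighter in mural cells than in members.

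Of the 107 genes higher against both sets, 61 had their highest CPM in members among all 8 classes (57.0%, beside 9.83% of all genes compared). Mural cells were highest for 22 (20.6%, beside 9.66%), stroma and endothelial cells for 8 each, immune cells for 7 and germ cells for 1. RDH10, ANXA3, MMD, PRELP, TMEM56, PTGR1, SBSPON, THRB and EREG were among the 61, and COX4I2, ADIRF, HEYL and NOTCH3 were among the 22. Set A and set B could not be highest for any of the 107, since the genes were chosen against them. The same choice favours members, so their count was partly set in advance.

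Genes lower against both sets were few and included parts of the mitotic machinery. VCAN, the matrix proteoglycan versican, was at 128 CPM (121–135) in members against 424 CPM in set A and 489 CPM in set B, and the set A value was 243 CPM within barcodes ending in 2. CENPF, a kinetochore protein, was at 35.7, 127 and 329.8 CPM, and TOP2A, the topoisomerase of dividing cells, at 29.6, 84.3 and 213 CPM. ASPM (10.7, 44.8 and 103 CPM) and DLGAP5 (6.61, 24.7 and 29.4 CPM), both proteins of the spindle, followed that order.

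CHGA, the secretory granule protein chromogranin A, was at 14.6 CPM in members, 56.9 CPM in set A and 106 CPM in set B. PCP4, a calmodulin-binding peptide, was at 13.3, 49.1 and 78.0 CPM, and EZH2, the methyltransferase of a Polycomb complex, at 30.2, 99.3 and 78.6 CPM. SORCS1, a sorting receptor (6.51 CPM in members), TGFBR3 and PTN, the growth factor pleiotrophin (71.3 CPM), completed the 11. Among 18 cell cycle genes, 2 were lower against both sets, none was higher, and 8 were lower than in set B. MKI67 stood at 9.32 CPM in members, 22.8 CPM in set A, 86.3 CPM in set B and 191 CPM in germ cells.

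In the NOTCH pathway 4 of 17 genes compared were higher in members against both sets and none lower, beside 0.989% of all genes. The receptor NOTCH3 was at 96.9 CPM (90.9–103) in members, 5.97 CPM in set A, 23.5 CPM in set B and 256 CPM in mural cells. The ligand JAG1 was at 97.7 CPM (91.6–104), 23.4 and 25.7 CPM, with 116 CPM in germ cells and 181 CPM in mural cells. The target repressors HEYL (68.4, 4.49 and 8.97 CPM) and HES4 (46.9, 2.80 and 9.28 CPM) were both low-count genes with ratios over 2-fold. HEY2, a relative of HEYL, was used to choose the cells.

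The more abundant NOTCH genes differed less. NOTCH2 stood at 261 CPM in members against 138 and 139.5 CPM (log2 0.88 and 0.86), below 2-fold. HES1, a general target, was at 797 CPM in members and 894 CPM in set A, a log2 ratio of −0.16 that became 1.11 within barcodes ending in 2, where set A cells had 365 CPM. In set B cells HES1 was at 252 CPM. RBPJ, the DNA-binding partner of NOTCH, was at 146, 169.8 and 114 CPM, so the levels were close. The list's median log2 ratio was 0.11 over set A and 0.33 over set B.

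In the retinoic acid pathway 2 of 12 genes were higher against both and none lower. RDH10, which oxidises retinol to retinal in the first step of retinoic acid synthesis, was at 355 CPM (344–367) in members, 62.1 CPM in set A and 73.6 CPM in set B, and 27.7%, 7.84% and 6.75% of thinned cells had a UMI. DHRS3, which runs that step in reverse, was at 77.9, 16.3 and 25.7 CPM. ALDH1A2, the enzyme of the second step, was at 118 CPM in members and 122 CPM in set A but 44.2 CPM in set B. The degrading enzymes CYP26A1 and CYP26B1 were at 1.10 and 3.11 CPM in members, against 77.1 CPM of CYP26A1 in germ cells and 81.4 CPM of CYP26B1 in endothelial cells. The median log2 ratio of the list was −0.01 over set A and 0.43 over set B.

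In the activin, BMP and AMH list 3 of 23 genes were higher against both and 1 lower. FSTL3, a secreted antagonist of activin, was at 116 CPM (109–123) in members, 35.5 CPM in set A and 23.2 CPM in set B. The BMP-responsive ID1 (306, 114 and 61.3 CPM) and ID3 (548, 104 and 172 CPM) were higher too, and ID2 was at 1361, 827 and 497 CPM, past 2-fold over set B only. TGFBR3, a co-receptor that binds inhibin, was lower, at 25.0, 65.9 and 61.3 CPM. Hormones of later granulosa cells were highest in set B: AMH was at 16.7 CPM in members and 90.7 CPM in set B. INHBA, the beta A subunit of activin, was at 56.3 CPM in members, 28.1 CPM in set A and 18.6 CPM in set B. The median log2 ratios were 0.10 and 0.23.

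Basement membrane genes included 4 of 13 higher against both sets and none lower. LAMB1, a laminin beta chain, was at 677 CPM (661–693) in members, 164 CPM in set A and 282 CPM in set B, and 48.1% of thinned members had a UMI against 13.6% and 28.3%. LAMA4, a laminin alpha chain, was at 261, 88.8 and 101 CPM, and the heparan sulfate proteoglycan AGRN at 116, 44.5 and 51.4 CPM. NID1, the linker protein nidogen, was at 38.5, 3.17 and 3.71 CPM, and more abundant in stroma (98.1 CPM) and mural cells (203 CPM). Set B cells instead had more of LAMA1 (74.0 against 22.8 CPM), and LAMC1 was at 151, 46.4 and 250.3 CPM. SPARC and COL4A2, the most abundant others, differed by less than 2-fold (1669 and 315 CPM in members). The list's median log2 ratio was 0.46 over set A and 0.21 over set B.

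**Figure D3:**
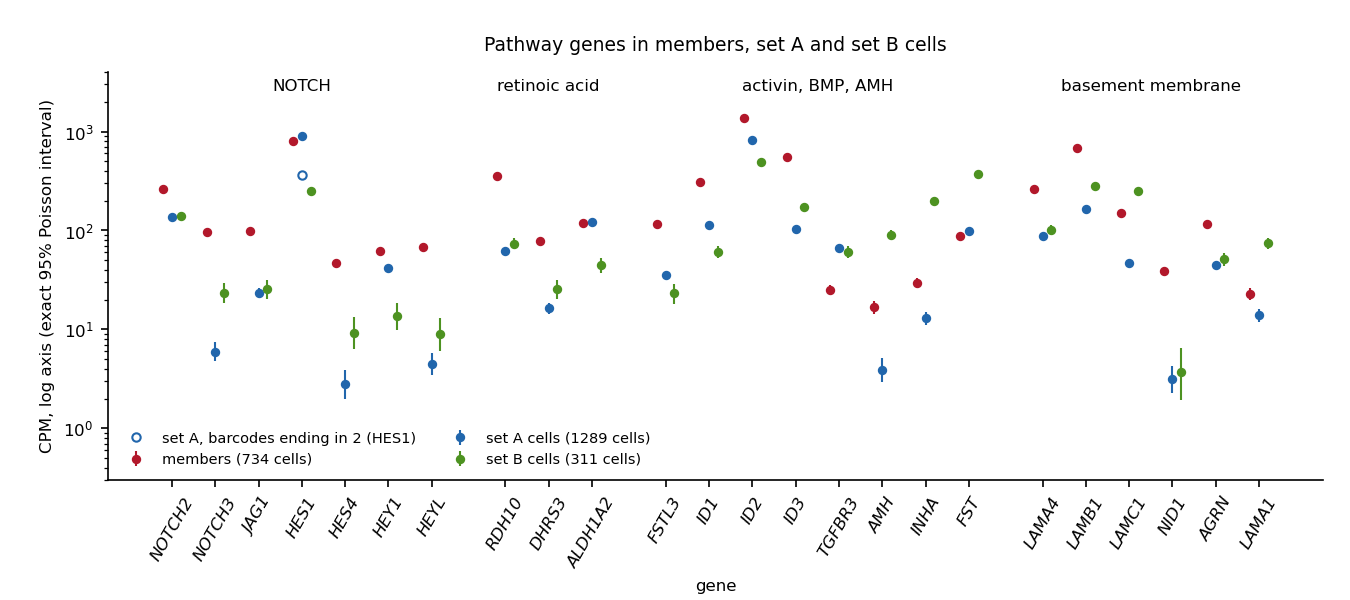
CPM on a log axis with exact 95% Poisson intervals for genes of the NOTCH, retinoic acid, activin, BMP and AMH, and basement membrane lists in members (red), set A (blue) and set B cells (green). Members lie above both others for NOTCH3, RDH10, ID3 and LAMB1, set B cells for AMH, INHA and FST, and the open circle gives HES1 in set A cells with barcodes ending in 2 (365 CPM).

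The WNT list had none of 11 genes past 2-fold against both sets. Over set A 4 of 14 were lower in members: RSPO1, an amplifier of WNT signals in ovary development (8.82 against 65.1 CPM), the transcription factor LEF1 (29.8 against 159 CPM), and the secreted antagonists SFRP1 and SFRP2. SFRP1 was at 236 CPM in members, 529 CPM in set A and 296 CPM in set B. WNT6 and LGR4, a ligand and an R-spondin receptor, were at 120.4 and 119 CPM in members. Against set B none was past 2-fold, and the median log2 ratios of the list were −0.46 and −0.10.

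Among hormone and nuclear receptors 1 of 14 was higher against both. THRB, a thyroid hormone receptor, was at 70.0 CPM (64.9–75.4) in members, 3.61 CPM in set A and 11.8 CPM in set B, and no other class passed 24.7 CPM. PPARG, a lipid-sensing receptor, separated members (50.6 CPM) and set B cells (89.7 CPM) from set A (4.42 CPM). The oestrogen receptor ESR1 was at 31.3 CPM in members, 91.5 CPM in set A and 31.9 CPM in set B. NR5A2, a regulator of granulosa steroid genes, was at 8.82 CPM in members and 122 CPM in set B.

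A few steroid and hedgehog genes were lower in members than in set B, 2 of 6 and 1 of 6 compared. CYP19A1, the aromatase that forms oestrogens, was at 3.81 CPM in members, 6.85 CPM in set A and 105 CPM in set B. Of 6 steroid genes compared none was higher in members, and the electron carriers FDX1 and FDXR were at 156 and 143 CPM. IHH, a ligand made by granulosa cells of growing follicles, had 4 UMIs in all members (0.401 CPM) against 46.1 CPM in set B, while DHH was at 18.2 and 17.3 CPM, and the receptor components PTCH1 and SMO at 30.5 and 57.1 CPM in members. None of the 5 hedgehog genes compared was past 2-fold against both.

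Of 11 genes linked to hypoxia or respiratory chain isoforms, COX4I2 and ADM were higher against both. ADM, the vessel-relaxing peptide adrenomedullin, was at 114, 31.0 and 44.2 CPM. HIF1A, the oxygen-regulated transcription factor, was at 186, 166 and 139.9 CPM, less than 2-fold apart, and genes known to be induced by low oxygen differed in direction. ANKRD37 was at 131, 118 and 32.2 CPM, and VEGFA, a vessel growth factor, at 66.7, 179 and 72.1 CPM. Of 13 relatives and partners of the rule genes 1 was higher, RGS5, which acts on G proteins like RGS4 and marks pericytes (1068, 455 and 354 CPM). Among the others RGS2 was at 82.1 CPM, and LYPD6, a relative of LYPD1, at 45.4 CPM against 34.8 CPM in set A and 21.0 CPM in set B.

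Early response genes bear on the digestion step, since tissue dissociation can induce them. Of 20 compared, NR4A2 was higher against both (467, 160.3 and 110.5 CPM), 2 were lower than in set A (EGR4 and DUSP2) and 6 higher than in set B. FOS stood at 2761 CPM in members, 3957 CPM in set A (2749 CPM within barcodes ending in 2) and 1385 CPM in set B, and stroma cells had 5297 CPM. EGR1 was at 1789.6, 2435 and 955 CPM, and the chaperone HSPA8 at 1817, 1398 and 1477 CPM. The list summed to 12528 CPM in members, 14589 CPM in set A and 6656 CPM in set B. Within barcodes ending in 2 the order of members and set A was reversed, at 12492 and 11590 CPM, with 6546 CPM in set B. Cell cycle inhibitors had none of 5 past 2-fold, with CDKN1B at 57.1, 93.8 and 50.1 CPM.

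Of 21 genes that the study names for its granulosa clusters, 6 were higher in members against both sets and none lower: ADIRF, COX4I2, RDH10, HES4, THRB and HEYL. The study chose these genes on the same cells, so the count is not independent evidence of their direction. The list pools genes of several clusters. ADIRF, COX4I2 and RDH10 are named for the same cluster as the rule genes LYPD1 and CBLN2. HES4, THRB and HEYL are named mainly for that cluster and another, and NR4A1, ATF3 and FOSB for a different one. Whether members are the cells of that shared cluster was not tested. Others of the list were higher against 1 set, such as OSR1, a transcription factor of the urogenital mesoderm (36.6, 5.38 and 20.1 CPM). ATF3, a stress-induced transcription factor, was at 698, 469.8 and 225 CPM.

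Endothelial, immune, germ cell and erythroid markers were low in sum. The rule bars DAZL and PECAM1 UMIs and high collagen, so low germ cell, endothelial and stroma sums were partly set in advance. Endothelial markers summed to 28.0 CPM over 9 genes in members (3360.3 CPM in endothelial cells), immune markers to 17.8 CPM over 8 (8279.6 CPM in immune cells), germ cell markers to 59.5 CPM over 9 (1711 CPM in germ cells) and erythroid markers to 11.0 CPM over 6. Erythroid markers summed to 9.28 CPM in set A and 1.24 CPM in set B cells. Within barcodes ending in 2 their sum was higher in members (11.1 CPM) than in set A (2.48 CPM) and set B cells (1.27 CPM). None of the genes of these 4 lists was past 2-fold against both sets. Stroma markers summed to 648 CPM over 11 genes against 4877 CPM in stroma cells, and 1 was higher, POSTN, the matrix protein periostin (122, 14.1 and 45.2 CPM). Surface epithelium markers summed to 541 CPM in members, 912 CPM in set A and 270.4 CPM in set B cells, and within barcodes ending in 2 to 528, 1153 and 221 CPM. Against set A 4 of 10 were lower, and against set B 2 of 7 were higher, KRT19 (323 against 127 CPM) and LHX2 (161 against 62.8 CPM). UPK3B was at 10.4 CPM in members and 8.09 CPM without the 2 members with barcodes ending in 1.

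Mural markers included some that were higher in members. Of 9 compared, 3 were higher in members against both sets (RGS5, NOTCH3 and PDGFRB) and none lower, and the 11 genes summed to 1463 CPM in members, 561 CPM in set A, 566 CPM in set B and 5259 CPM in mural cells. Per cell thinned to 1000 UMIs, members had a median of 1 mural UMI (0–14), set A and set B cells 0 (0–6 and 0–4) and mural cells 4 (0–34). RGS5 alone made up 1068 CPM of that sum in members, with 1005 CPM in mural cells. The growth factor receptor PDGFRB was at 64.4 CPM in members and 366 CPM in mural cells. Contractile genes were far lower than in mural cells, with ACTA2, smooth muscle actin, at 107 against 1789 CPM and TAGLN at 71.3 against 1097 CPM.

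Pericyte genes used to pick the mural cells were low in members, but 3 of the 5 were above set A and set B cells. CSPG4 stood at 8.41 CPM (6.71–10.4) in members, 0.368 CPM in set A, 0.928 CPM in set B and 78.1 CPM in mural cells. Without thinning, 8.86% of members, 0.310% of set A and 0.965% of set B cells had a UMI of CSPG4. ABCC9 stood at 5.91, 1.18, 0.928 and 65.1 CPM, and KCNJ8 at 9.82, 0.810, 2.17 and 139 CPM. HIGD1B and NDUFA4L2 were near 0 in members (0.801 and 2.00 CPM). Also without thinning, 557 of 734 members (75.9%) had no UMI of these 5 genes. In those 557 cells NOTCH3 stood at 83.9 CPM, COX4I2 at 159 CPM, HEYL at 59.8 CPM, ADIRF at 194 CPM and PDGFRB at 54.5 CPM. With only these members 97 genes were higher against both sets, 95 of them shared with the 107. These 557 cells are part of the same 734, and genes this low can be missed in a cell that has them. Whether mural RNA in such cells adds to the levels was not tested. AMHR2, at 282 CPM in members, was at 49.5 CPM in mural cells.

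**Figure D4:**
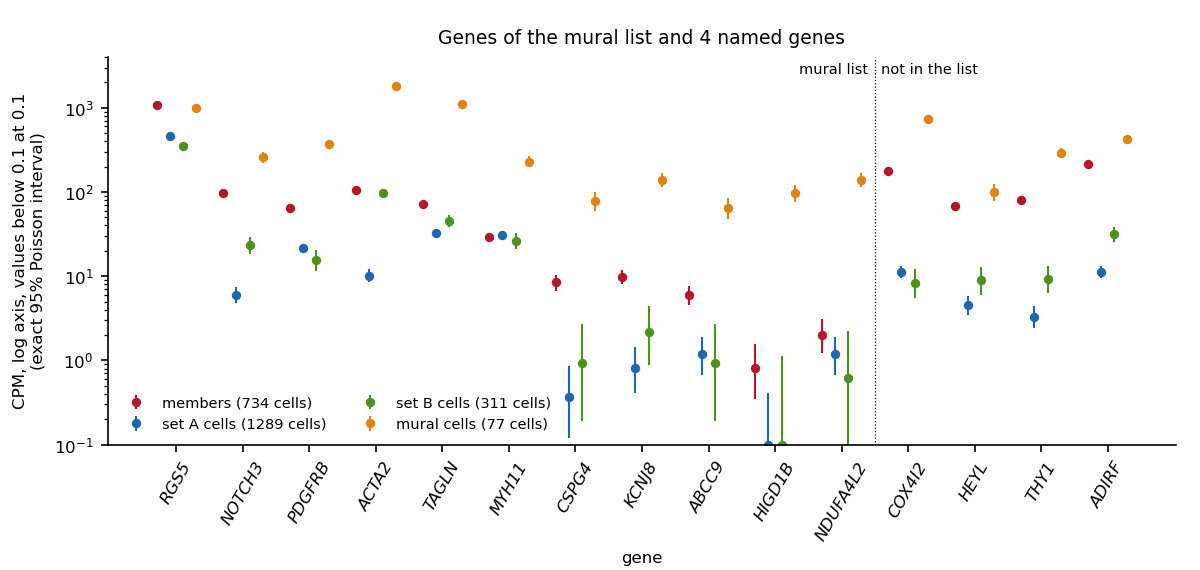
CPM on a log axis with exact 95% Poisson intervals for 11 mural markers (left of the dotted line) and 4 of the named genes in members (red), set A (blue), set B (green) and mural cells (orange). Members are close to mural cells in RGS5 and lower in the other genes, with HIGD1B and NDUFA4L2 near 0.

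The levels were also read along the number of set C UMIs, the quantity the rule uses. For this, 4270 cells with barcodes ending in 2 that passed the other limits were thinned to 1000 UMIs and binned by set C UMIs. Members made up 246 of 3173 cells at 0, 255 of 751 at 1, 129 of 219 at 2, 70 of 92 at 3 and 32 of 35 at 4 or more, so that a difference between these bins is also one in the share of members. CTSD went from 761 CPM at 0 through 1774, 2562 and 2793 to 3086 CPM, and LAMB1 from 203 through 513, 598 and 685 to 1057 CPM. Genes of the early response and heat shock list were higher above 0 as well, with FOS at 1266, 1779 and 1932 CPM and HSPA8 at 1132, 1297 and 1543 CPM over the first 3 bins. So were VCAN, though lower in members than in both sets (131, 186 and 196 CPM), and AMHR2 (107, 226 and 256 CPM). CENPF went the other way (122, 65.2 and 54.8 CPM).

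Within members alone the first 3 bins differed by smaller ratios in CTSD, LAMB1, ADIRF and COX4I2. CTSD was at 2423 CPM in members with 0 set C UMIs left after thinning, 2965 CPM at 1 and 3302 CPM at 2, and LAMB1 at 618, 749 and 736 CPM. ADIRF was at 130.1, 212 and 302 CPM and COX4I2 at 187, 212 and 202 CPM. In cells that were no members, CTSD was at 621, 1161 and 1500.0 CPM and COX4I2 at 34.5, 66.5 and 55.6 CPM in bins of 2927, 496 and 90 cells. Median unthinned depth differed between members (11478.5 UMIs at 0) and other cells (3032 UMIs at 0). Among members it also differed between bins, with 10006 UMIs at 1 and 8771 UMIs at 2. The part of depth in these levels was not tested.

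**Figure D5:**
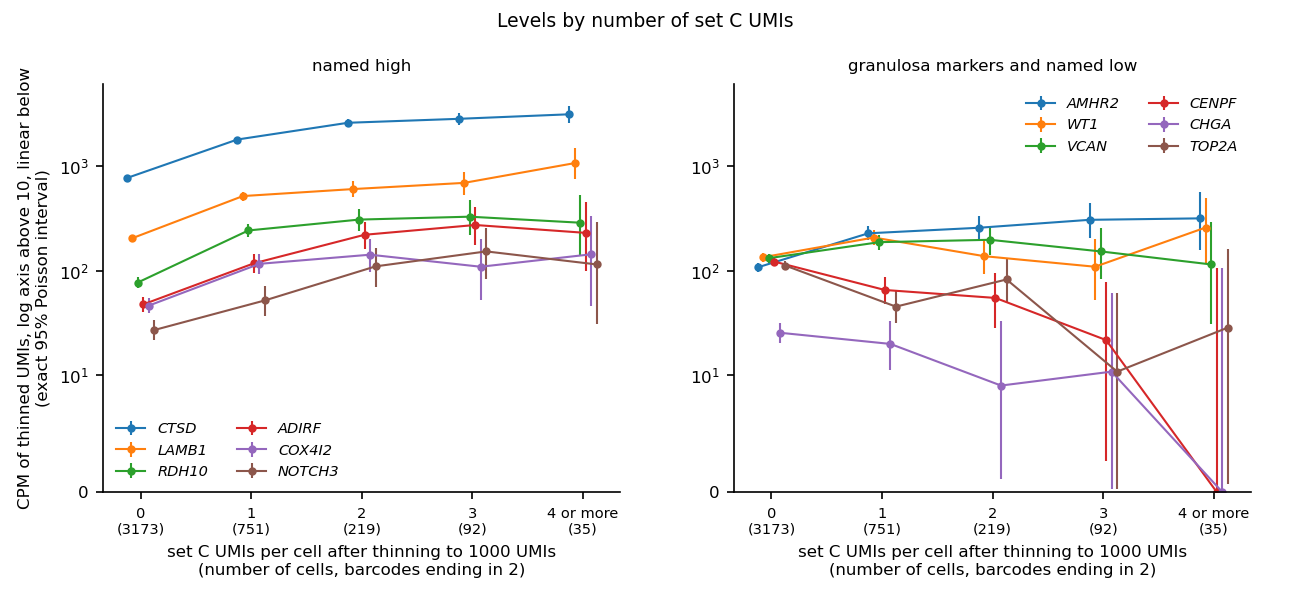
CPM of thinned UMIs with exact 95% Poisson intervals by number of set C UMIs per cell (bins of 3173, 751, 219, 92 and 35 cells with barcodes ending in 2), for 6 genes high in members (left) and 6 granulosa or low genes (right). The 6 high genes climb from 0 to 2 set C UMIs while the number of members goes from 246 of 3173 cells to 129 of 219, and intervals are wide in the bins of 92 and 35 cells. AMHR2 and VCAN on the right climb from 0 to 2 as well, while CENPF, CHGA and TOP2A are lower at 2 than at 0.

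Members also varied among themselves. Over 638 genes with at least 0.2 UMIs per member after thinning (732 members with barcodes ending in 2), the median ratio of variance to mean was 1.07, and 17 genes exceeded 2. HBB, a haemoglobin chain, had by far the largest ratio at 248, found in 62 of these members (8.47%) with up to 366 of 1000 UMIs. The defining erythroid markers summed to 11.1 CPM in these members. Mitochondrial transcripts such as CYTB (5.98) and COX2 (5.17) came next among named genes. Of the leading genes, CTSD (2.33) and IGFBP5 (2.05) were past 2 as well, and so were FOS (2.52), EGR1 (2.23), the interferon-induced IFI27 (3.06), the stroma proteoglycan DCN (2.38) and the prostaglandin synthase PTGDS (2.29).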

How the data were processed

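Single-cell RNA was measured in fetal ovaries of Macaca fascicularis at E84 and E116, 1 library per stage. The authors deposited raw UMI counts per gene and cell for both libraries together, which they made with Cell Ranger 3.0.2 (submitters' processing notes) against Macaca_fascicularis_5.0. Seurat is named for the later steps. The sources mention neither a doublet caller nor a correction for free RNA, and neither was run here. The table holds 148824177 UMIs, 59899960 in barcodes ending in 1 and 88924217 in barcodes ending in 2. Its barcode endings were used only as unlabelled batches. Of its 18446 genes, 3213 have an Ensembl identifier only. Sequences and coordinates were not used here.

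Cells were picked by the rule given in the text, and set A and set B cells in the same way with their set in the place of set C. Stroma cells had at least 20 UMIs of the 3 collagens per 10000 and no DAZL, PECAM1 or TYROBP UMI. Germ, endothelial and immune cells had at least 2 UMIs of DAZL, PECAM1 and TYROBP. Counts were summed per class as CPM with exact 95% Poisson intervals, and ratios had 10 CPM added. For shares, each cell was thinned to 1000 UMIs, which leaves out no cell, except where a share is given as without thinning. With 1 pooled sample there was no test, SE or p-value.

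Genes named are the 20 highest and up to 12 lowest by the smaller of the ratios over set A and set B, in each list those past 2-fold against both and the 3 highest in members, and the rule genes. Other list genes named were chosen after their values were seen. Members and lists were chosen with earlier results of these data known. The 22 lists are those named in the text, 8 of them cell type markers.

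Alternatives were a minimum of 6 set UMIs, 200 to 3000 genes per cell (the limits in the methods), at most 20% mitochondrial UMIs, no deepest 8% of cells, at least 2000 UMIs, 1 or 50 CPM added, no minimum of UMIs per gene, means over cells, thinned sums and single endings. Set C without each gene and members without mural UMIs were added after seeing the data, as were the mural class and the split of the bins of set C UMIs into members and other cells. The procedure was tested on simulated data. Python 3.11.15, numpy 2.4.6, scipy 1.17.1 and matplotlib 3.10.9 were used.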

Additional observations from a re-analysis of the deposited data

How the results depend on the processing

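Direction held for the ratios of the 31 named genes. In 992 values of their 62 ratios over 16 alternatives, none changed sign, 932 stayed past 1 in size on the log2 scale, and 329 moved beyond their counting interval. These genes were chosen for large ratios in the same cells, and the alternatives reuse most of those cells. A change of sign was therefore unlikely from the start. The number of members moved from 734 to 339 with 200 to 3000 genes per cell and to 446 with set C without RGS4, a setting chosen after seeing the data. Counts of genes past 2-fold depended on the CPM added. With 1 CPM, 578 genes were higher and 769 lower than in set A, and 716 higher and 369 lower than in set B, and with 50 CPM these counts were 81, 33, 64 and 37. Without RGS4 in set C, 151 genes were higher than in set B. Against both sets, 256 were higher and 83 lower with 1 CPM, and 32 and 2 with 50 CPM. Lower genes numbered 7 within barcodes ending in 2, of which 5 were among the 12, and 38 without RGS4, of which 10 were. Of the 12, 6 were shared with the 16 lower at 200 to 3000 genes and 4 with the 14 from thinned sums. All other alternatives left each count against set A or set B alone within 1.5 times its value. Of the 107 genes higher against both sets, 92 were shared with the 99 within barcodes ending in 2, 84 with the 120 at 200 to 3000 genes and 63 with the 84 from thinned sums. Barcodes ending in 1 gave no ratios, as they hold 2 members. The CPM added limits what can be said of low genes, since it understates their ratios. No paired analysis was possible because the columns carry no stage or replicate number and all cells are 1 pooled sample.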

Other observations

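Some genes that the naming rule did not reach, picked here after their values were seen, were highest in members among all 8 classes. WFDC2, a secreted protease inhibitor of epithelia, stood at 165 CPM in members, 4.42 CPM in set A and 56.9 CPM in set B, a log2 ratio of 3.61 over set A. NTRK2, a receptor of the neurotrophin BDNF, was at 235, 70.4 and 59.1 CPM. CLU, the secreted chaperone clusterin, was at 1273, 395 and 428 CPM, and ISYNA1, which forms inositol phosphate from glucose phosphate, at 1127, 406 and 451 CPM. RAMP1, a co-receptor for peptides related to calcitonin, was at 409, 126 and 124 CPM. HPGD, which inactivates prostaglandins, and PTGER2, a prostaglandin E receptor, were at 72.2 and 38.3 CPM in members, 9.65 and 2.87 CPM in set A, and 19.5 and 11.1 CPM in set B. GDNF, a growth factor known from the germ cell niche of the testis, was at 26.4, 2.87 and 5.57 CPM.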
